A study of Homo sapiens with 8 samples.

Results

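Centrosomes organise the microtubules of animal cells, and the messenger RNAs of 64 centrosome and centriole proteins were measured in P-bodies and cytosol of 2 human acute myeloid leukaemia cell lines. The 64 genes were taken by name from the 60196 gene symbols used: all symbols made of CEP and a number, HAUS and a digit, or TUBGCP and a digit from 2 to 6, and a set of named genes with products at the centrosome, among them PCM1, PCNT, PLK4, SASS6 and CSPP1. The rule uses no measured value, but it was drawn up with earlier results of these data known. HEL comes from an erythroleukaemia and MOLM-13 has monocytic character, and each stands for leukaemia cells only as 1 line grown in culture. There were 4 groups of 2 libraries, one of P-body RNA and one of cytosolic RNA from either line. The labels give no treatment or genetic change for any group. The fraction that the titles call cyto was read as cytosol, and the sources used here do not say how P-bodies were isolated.

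P-bodies are granules in the cytoplasm where messenger RNAs and repressor proteins gather and translation is low. A centrosome consists of a mother and a daughter centriole, cylinders of microtubules, within a pericentriolar matrix that binds gamma-tubulin ring complexes and so starts new microtubules. Before cell division each centriole templates a procentriole, and in a resting cell the mother centriole can form the base of a cilium. Augmin adds microtubules within the spindle, and centriolar satellites are granules that carry proteins to the centrosome.

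Library totals ran from 13153551 to 18071473 counts in HEL and from 5897625 to 11000536 in MOLM-13. Levels are given as CPM, counts relative to library size, with the size adjusted within each line by the trimmed mean of M values (TMM). HEL libraries had all 12 erythroid and megakaryocytic markers at 1 CPM or more and 2 of 12 monocytic and granulocytic markers. MOLM-13 libraries had 3 and 11 of 12, so both lines matched their labels. Summed levels were 1611 to 1624 CPM in P-bodies against 2859 to 3047 CPM in the cytosol for the first list in HEL, and 1392 to 1412 against 1551 to 1592 CPM for the second in MOLM-13. A list of 8 lymphoid markers summed to 2.32 to 3.11 CPM in HEL and 115 to 176 CPM in MOLM-13. Levels were scaled in each line on its own, so levels of the 2 lines are set side by side without a test. Nothing in the labels says that the 2 replicates of a group came from separate cultures, so p-values reflect the spread between libraries only, and that spread may be technical. With no spike-in among the counts used here, a change means a change against most other genes of the library.

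Messenger RNAs of centrosome and centriole proteins took up 0.873% and 0.842% of all counts in the HEL P-body libraries and 0.557% and 0.565% in the HEL cytosolic libraries. In MOLM-13 they took up 1.26% and 1.21% against 0.663% and 0.665%. The P-body share was above the cytosolic share in every library of both lines. By edgeR's quasi-likelihood test with Benjamini-Hochberg adjustment over all genes, 32 of 61 tested members rose in HEL P-bodies and 14 fell, at an adjusted p below 0.05. Of all 14772 genes tested in HEL, 27.5% were higher and 27.1% lower. In MOLM-13, 47 of 62 members rose and 5 fell, and of all 14089 genes tested 32.4% were higher and 28.5% lower. The median log2 change of the members was 0.37 in HEL and 0.77 in MOLM-13, beside -0.06 and -0.04 over all genes tested. At least 2-fold rises were found for 18 members in HEL and 28 in MOLM-13, and no member fell 2-fold in either line. Without HEL P-body replicate 2 the number of members that fell in HEL was 8, and CEP131, CEP250, CNTROB, HAUS5, TUBGCP2 and TUBGCP3 were then not called. Without MOLM-13 P-body replicate 1 or cytosolic replicate 1 the number that fell in MOLM-13 was 3, and CEP131 and CEP164 were then not called. CEP112 and HAUS7 were too low to test in both lines, with at most 0.711 CPM in any library, and CEP126 was too low in HEL.

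When libraries were scaled by their totals instead, the median of all genes went to -0.39 in HEL and -0.47 in MOLM-13. Under that scaling the members' medians were 0.05 and 0.33. Of the HEL members 27 were then higher and 21 lower, where 18.7% of all genes were higher and 45.8% lower. Of the MOLM-13 members 32 were higher and 9 lower, where 20.6% of all genes were higher and 50.8% lower. The rises that lost their call were those of ALMS1, CEP120, CEP41, CEP55 and OFD1 in HEL. In MOLM-13 they were those of CDK5RAP2, CEP120, CEP41, CEP55, CEP78, CEP85, CEP89, HAUS1, HAUS2, HAUS5, ODF2, STIL, TUBGCP3, TUBGCP4 and TUBGCP5.

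**Figure D1:**
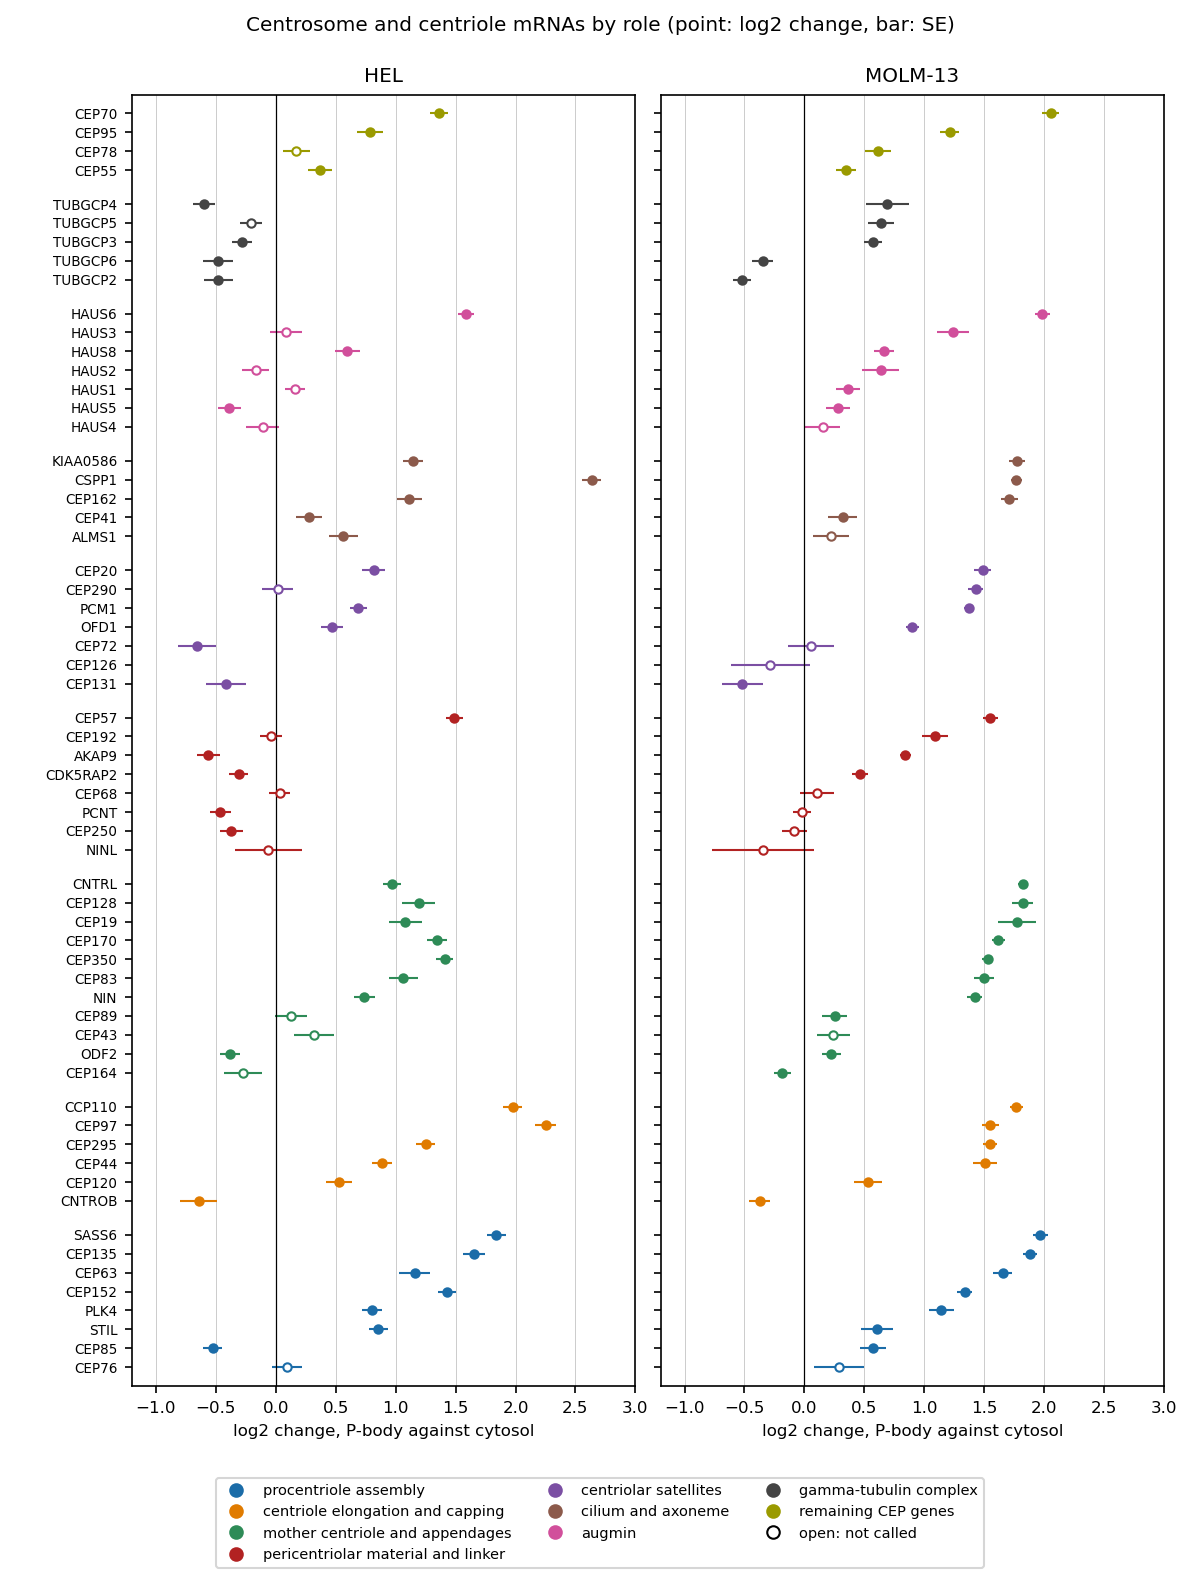
Each point is the log2 change of 1 member between P-body and cytosol in HEL (left) and MOLM-13 (right), with its standard error as a bar, and members are grouped by role. Filled points were called at an adjusted p below 0.05, and most of those on procentriole, capping and mother centriole genes lie to the right of 0 while the gamma-tubulin complex genes lie to the left in HEL.

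A set of 31 members rose in both lines, and 4 members, CEP131, CNTROB, TUBGCP2 and TUBGCP6, fell in both. Of the 11984 genes tested in both lines, 24.5% were higher in both and 14.9% were lower in both. The HEL falls of CEP131, CNTROB and TUBGCP2 were not called without P-body replicate 2, and in MOLM-13 DESeq2 called the fall of TUBGCP2 alone among these 4. HAUS6, SASS6 and CEP135 were among the 6 members with the greatest rise in each line. Coding sequence from the middle of these 3 messages and of the 4 that fell in both lines is shown because the groups differed in base composition. The stretches come from GENCODE release 29 transcripts on GRCh38, read 5′ to 3′ on the coding strand in frame, and capitals mark G or C at the third position of a codon.
HAUS6: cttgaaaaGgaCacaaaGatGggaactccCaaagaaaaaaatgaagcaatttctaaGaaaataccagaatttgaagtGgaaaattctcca
SASS6: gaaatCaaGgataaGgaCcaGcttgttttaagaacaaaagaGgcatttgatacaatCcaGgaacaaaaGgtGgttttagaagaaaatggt
CEP135: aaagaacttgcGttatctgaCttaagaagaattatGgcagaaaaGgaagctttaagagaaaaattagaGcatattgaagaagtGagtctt
CEP131: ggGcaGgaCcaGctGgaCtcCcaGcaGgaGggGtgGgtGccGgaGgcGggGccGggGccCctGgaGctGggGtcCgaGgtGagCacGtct
CNTROB: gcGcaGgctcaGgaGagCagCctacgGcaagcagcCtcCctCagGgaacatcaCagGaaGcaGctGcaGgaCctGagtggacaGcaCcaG
TUBGCP2: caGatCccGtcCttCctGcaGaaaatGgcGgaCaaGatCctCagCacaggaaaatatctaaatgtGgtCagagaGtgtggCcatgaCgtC
TUBGCP6: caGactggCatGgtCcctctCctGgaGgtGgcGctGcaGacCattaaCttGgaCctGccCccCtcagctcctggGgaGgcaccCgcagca
Each stretch is 90 bases long and starts at codon boundaries near the centre of the coding sequence, and each lies in coding exons. Of 30 codons, 7 in HAUS6, 10 in SASS6 and 6 in CEP135 ended in G or C. The corresponding counts were 29 in CEP131, 22 in CNTROB, 20 in TUBGCP2 and 21 in TUBGCP6. Over the whole coding sequence the share was 32.4% in HAUS6, 32.2% in SASS6 and 31.1% in CEP135. It was 82.1% in CEP131, 63.5% in CNTROB, 79.2% in TUBGCP2 and 75.3% in TUBGCP6, so single stretches can differ from the whole. The genes span chr9:19053143-19103119 (HAUS6), chr1:100083563-100132955 (SASS6), chr4:55948871-56033363 (CEP135), chr17:81189593-81222999 (CEP131), chr17:7932101-7949918 (CNTROB), chr10:133278630-133312337 (TUBGCP2) and chr22:50217689-50244992 (TUBGCP6).

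The counts by role that follow stand beside 27.5% higher and 27.1% lower of all genes in HEL, and 32.4% and 28.5% in MOLM-13. With 2 libraries a group, a lack of overlap describes the values only. It was also found for members without a call, such as CEP164, CEP78 and HAUS1 in HEL. Genes that start a new centriole were mostly higher in P-bodies. Of 8 procentriole assembly genes, 6 rose and 1 fell in HEL, with a median log2 change of 1.01, and 7 rose and none fell in MOLM-13, with a median of 1.24. SASS6, which builds the cartwheel at the core of the procentriole, stood at 204 and 217 CPM in P-bodies and 58.6 and 59.0 CPM in the cytosol. Its MOLM-13 levels were 308 and 299 CPM in P-bodies and 73.8 and 81.0 CPM in the cytosol. The P-body libraries of both lines lay well above the cytosolic ones and did not overlap them, and SASS6 rose 3.58-fold in HEL (log2 change 1.84 ± 0.081, SE, adjusted p = 1.13e-10) and 3.92-fold in MOLM-13 (log2 change 1.97 ± 0.061, SE, adjusted p = 3.72e-19). CEP135, which ties the cartwheel to the microtubule wall, measured 119.7 and 115 CPM in P-bodies and 37.5 and 36.9 CPM in the cytosol. In MOLM-13 it measured 359 and 326 CPM in P-bodies and 94.6 and 91.3 CPM in the cytosol. These groups did not overlap, and the rise was 3.15-fold in HEL (log2 change 1.65 ± 0.088, SE, adjusted p = 7.42e-10) and 3.69-fold in MOLM-13 (log2 change 1.88 ± 0.061, SE, adjusted p = 8.37e-19).

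CEP152 and CEP63, the scaffold that brings PLK4 to the mother centriole, rose by log2 changes of 1.43 and 1.16 in HEL and 1.34 and 1.65 in MOLM-13. PLK4, the kinase that starts duplication, rose 1.74-fold and 2.21-fold. STIL, which PLK4 phosphorylates so that it binds SASS6, stood at 379 and 325 CPM in P-bodies and 198 and 191 CPM in the cytosol in HEL. The MOLM-13 levels were 24.7 and 26.9 CPM in P-bodies and 15.6 and 18.0 CPM in the cytosol. P-body values exceeded cytosolic values in both lines, with log2 changes of 0.86 and 0.61. The MOLM-13 rise of STIL was not called under library totals (0.17) or with a trend on GC content and length removed (0.02). CEP85, a partner of STIL, fell in HEL (log2 change -0.53) and rose in MOLM-13 (0.57). CEP76, which restrains repeated duplication, passed the test in neither line (0.09 and 0.29).

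Centriole elongation and capping genes held some of the greatest changes in HEL. Of 6 genes, 5 rose and 1 fell in each line, with medians of 1.07 in HEL and 1.53 in MOLM-13. CCP110 and CEP97 form a cap on the distal end of the centriole that restrains cilium assembly. CEP97 stood at 224 and 203 CPM in P-bodies and 46.0 and 43.7 CPM in the cytosol. In MOLM-13 its levels were 146 and 145 CPM in P-bodies and 51.2 and 48.2 CPM in the cytosol. The P-body libraries lay far above the cytosolic ones, and CEP97 rose 4.76-fold in HEL (log2 change 2.25 ± 0.087, SE, adjusted p = 4.17e-11) and 2.93-fold in MOLM-13 (log2 change 1.55 ± 0.071, SE, adjusted p = 9.76e-16). CCP110 showed 382 and 346 CPM in P-bodies and 93.2 and 92.1 CPM in the cytosol. Its MOLM-13 values were 333 and 332 CPM in P-bodies and 98.0 and 97.3 CPM in the cytosol. The P-body libraries were again clear of the cytosolic ones, with rises of 3.93-fold (log2 change 1.97 ± 0.078, SE, adjusted p = 4.77e-11) and 3.41-fold (log2 change 1.77 ± 0.055, SE, adjusted p = 4.86e-19). CEP295 and CEP44, which act in the conversion of new centrioles into centrosomes, rose by 1.25 and 0.89 in HEL and by 1.55 and 1.51 in MOLM-13 on the log2 scale. CEP120, an elongation factor, rose by 0.53 in each.

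CNTROB encodes centrobin, a protein of the daughter centriole, and went the other way. It measured 26.0 and 18.6 CPM in P-bodies and 31.5 and 38.2 CPM in the cytosol. MOLM-13 gave 43.2 and 42.2 CPM in P-bodies and 54.3 and 56.2 CPM in the cytosol. All 4 P-body libraries lay below the cytosolic libraries of their line, and CNTROB was 1.56-fold lower in HEL (log2 change -0.64 ± 0.152, SE, adjusted p = 0.00226) and 1.29-fold lower in MOLM-13 (log2 change -0.37 ± 0.087, SE, adjusted p = 0.000722). The HEL value was -0.34 without P-body replicate 2. With a trend on GC content and length removed, CNTROB was called in neither line (-0.10 in HEL, 0.056 in MOLM-13). DESeq2 did not call the MOLM-13 fall.

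Mother centriole and appendage genes rose in large part. Of 11 genes, 7 rose and 1 fell in HEL (median 0.97), and 9 rose and 1 fell in MOLM-13 (median 1.5). CNTRL, or centriolin, sits on the subdistal appendages and stood in MOLM-13 at 1678 and 1595 CPM in P-bodies and 460.4 and 464 CPM in the cytosol. In HEL it stood at 284 and 272 CPM in P-bodies and 137 and 147 CPM in the cytosol. The groups did not overlap, and the rise was 3.54-fold in MOLM-13 (log2 change 1.82 ± 0.044, SE, adjusted p = 6.56e-21) and 1.96-fold in HEL (log2 change 0.97 ± 0.075, SE, adjusted p = 3.83e-08). CEP128, also of the subdistal appendages, gave 146 and 125 CPM in P-bodies and 38.4 and 38.4 CPM in the cytosol in MOLM-13. HEL values were 29.8 and 28.7 CPM in P-bodies and 11.5 and 14.1 CPM in the cytosol, and the log2 changes were 1.82 in MOLM-13 and 1.19 in HEL. CEP350, a large protein that helps to anchor microtubules at the centrosome, had 867 and 785 CPM in P-bodies and 316 and 306 CPM in the cytosol in HEL. In MOLM-13 it had 1617 and 1542 CPM in P-bodies and 567 and 528 CPM in the cytosol. Both P-body groups stood clear of the cytosolic ones, by 1.41 ± 0.073 and 1.53 ± 0.045 (log2 change, SE).

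NIN and CEP170, of the subdistal appendages, rose by 0.74 and 1.34 in HEL and by 1.42 and 1.62 in MOLM-13 on the log2 scale. CEP170 has a pseudogene, CEP170P1, which held 3.25 to 11.8 CPM, far below the 100.2 to 345 CPM of CEP170, and reads shared between these copies cannot be told apart. The distal appendage genes, whose products dock the centriole to the membrane, differed among themselves. CEP83 rose (1.06 in HEL, 1.5 in MOLM-13), and CEP89 rose in MOLM-13 (0.25, and 0.13 without a call in HEL). The CEP89 rise was not called with DESeq2, without a filter, with a mean CPM of at least 5 (0.15) or in a fit of all 8 libraries (0.14). Under library totals the CEP89 value was -0.19 without a call. CEP164 was lower in MOLM-13 at an adjusted p close to the threshold (-0.18, adjusted p = 0.0365, and -0.27 without a call in HEL). Leaving out any of the 4 MOLM-13 libraries ended the CEP164 call, as did DESeq2 and testing without a filter, and with a trend on GC content and length removed the value was 0.17. ODF2, a base component of the appendages, fell in HEL (-0.38) and rose in MOLM-13 (0.22). CEP19 rose in both lines (1.08 and 1.77), and CEP43 passed the test in neither (0.32 and 0.24).

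The pericentriolar material and linker genes were the least enriched set beside the gamma-tubulin complex in HEL, where 1 of 8 rose and 4 fell, with a median log2 change of -0.19. In MOLM-13, 4 rose and none fell, with a median of 0.28. CEP57, which holds the matrix to the centriole, was the member that rose in both, from 209 and 206 CPM in the cytosolic libraries to 600.3 and 564 CPM in the P-body libraries in HEL. MOLM-13 levels were 289 and 288 CPM in P-bodies and 91.2 and 105 CPM in the cytosol. P-body values were above cytosolic values without overlap, by 2.80-fold (log2 change 1.49 ± 0.070, SE, adjusted p = 2.09e-10) and 2.93-fold (log2 change 1.55 ± 0.062, SE, adjusted p = 5.91e-17). AKAP9, a large scaffold that anchors kinases and gamma-tubulin complexes, measured 50.3 and 56.0 CPM in P-bodies and 81.6 and 75.5 CPM in the cytosol. Its MOLM-13 levels were 861 and 849 CPM in P-bodies and 471 and 483 CPM in the cytosol. P-body levels lay below the cytosol in HEL and above it in MOLM-13, with log2 changes of -0.56 ± 0.095 and 0.84 ± 0.043 (SE).

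CDK5RAP2, which activates gamma-tubulin complexes, followed the same pattern (-0.31 in HEL, 0.46 in MOLM-13). CEP192, a scaffold for mitotic kinases, gave -0.04 in HEL without a call and rose by 1.09 in MOLM-13. PCNT, or pericentrin, and CEP250, which forms the linker between centrioles, fell in HEL (-0.46 and -0.37) and passed no test in MOLM-13 (-0.02 and -0.08). CEP68 and NINL were called in neither line, and NINL was low at 1.18 to 3.98 CPM.

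Of the centriolar satellite genes, 3 of 6 rose (50%) and 2 fell (33.3%) in HEL, with a median of 0.24, beside 27.5% and 27.1% of all genes. In MOLM-13, 4 of 7 rose (57.1%) and 1 fell (14.3%), with a median of 0.90, beside 32.4% and 28.5% of all genes. PCM1, the scaffold on which satellites assemble, had 758 and 699 CPM in P-bodies and 453 and 451 CPM in the cytosol. In MOLM-13 it had 2593 and 2539 CPM in P-bodies and 1023 and 956 CPM in the cytosol. The P-body libraries were higher without overlap, 1.61-fold in HEL (log2 change 0.69 ± 0.070, SE, adjusted p = 8.04e-07) and 2.59-fold in MOLM-13 (log2 change 1.38 ± 0.042, SE, adjusted p = 3.63e-19). CEP290, a satellite and ciliary gate protein, stood at 19.6 and 22.8 CPM in P-bodies and 21.7 and 20.2 CPM in the cytosol. In MOLM-13 it stood at 267 and 247 CPM in P-bodies and 99.5 and 91.5 CPM in the cytosol. HEL libraries overlapped (log2 change 0.02, not called), while MOLM-13 P-body libraries were 2.70-fold higher (log2 change 1.43 ± 0.062, SE, adjusted p = 3.28e-16). CEP20 and OFD1 rose in both lines, by 0.82 and 0.47 in HEL and 1.49 and 0.90 in MOLM-13. CEP126, at 2.42 to 4.28 CPM in MOLM-13, was not called there (-0.28).

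CEP72 and CEP131 are satellite proteins that bind PCM1, and neither rose. CEP72 measured 13.1 and 12.8 CPM in P-bodies and 17.2 and 23.5 CPM in the cytosol, a fall of 0.66 on the log2 scale (adjusted p = 0.00255). CEP72 was not called without cytosolic replicate 2 (-0.41, adjusted p = 0.0644) or with the GC and length trend removed (-0.22, adjusted p = 0.275). In MOLM-13 its groups overlapped at 8.56 to 10.4 CPM (0.05, not called). CEP131 had 13.7 and 13.9 CPM in P-bodies and 14.9 and 21.7 CPM in the cytosol. MOLM-13 gave 11.3 and 12.6 CPM in P-bodies and 20.1 and 14.4 CPM in the cytosol. P-body values were lower without overlap in both lines, but the gap in HEL came close to the threshold, with log2 changes of -0.42 (adjusted p = 0.0491) and -0.52 (adjusted p = 0.0111). Without either P-body library of HEL, or without the second cytosolic one, CEP131 was no longer called there.

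Of the 5 cilium and axoneme genes described here, 5 rose in HEL and 4 in MOLM-13, and none fell, although under library totals CEP41 turned to -0.049 and -0.12. Their medians were 1.11 in HEL and 1.71 in MOLM-13. CSPP1, a protein of centrioles, spindle and cilium tip that steadies growing microtubules, showed the greatest rise in HEL, from 51.9 and 54.3 CPM in the cytosolic libraries to 337 and 324 CPM in the P-body libraries. In MOLM-13 it had 1433 and 1372 CPM in P-bodies and 399 and 423 CPM in the cytosol. P-body and cytosolic libraries did not overlap, and the rise was 6.22-fold (log2 change 2.64 ± 0.079, SE, adjusted p = 2.56e-11) against 3.41-fold (log2 change 1.77 ± 0.045, SE, adjusted p = 1.46e-20). KIAA0586, known as TALPID3, and CEP162, which promotes transition zone assembly, rose by 1.14 and 1.11 in HEL and 1.77 and 1.71 in MOLM-13. CEP41, needed for tubulin glutamylation in cilia, rose a little in both lines (0.28 and 0.32), and DESeq2 called neither rise. ALMS1, the Alström syndrome protein at the ciliary base, rose in HEL (0.56, and 0.22 without a call in MOLM-13).

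The augmin subunits did not move as one in HEL. HAUS6 and HAUS8 rose (1.59 and 0.60), HAUS5 fell (-0.39), and HAUS1, HAUS2, HAUS3 and HAUS4 were not called, at -0.17 to 0.16, although HAUS2 and HAUS4 were called lower under library totals. The 2 of 7 higher (28.6%) and 1 of 7 lower (14.3%) stand beside 27.5% and 27.1% of all genes, and HAUS5 was not called without P-body replicate 2 (adjusted p = 0.0592) or with the GC and length trend removed (-0.0018). In MOLM-13, 6 of 7 tested subunits rose, with a median of 0.63, but under library totals HAUS1 and HAUS5 turned negative (-0.076 and -0.16). HAUS4 was not called (0.15). HAUS6, the subunit that contacts the gamma-tubulin complex, had 1862 and 1787 CPM in P-bodies and 607 and 609 CPM in the cytosol in HEL. In MOLM-13 it had 396 and 378 CPM in P-bodies and 91.2 and 104 CPM in the cytosol. The P-body libraries stood apart in both lines, with rises of 3.0-fold (log2 change 1.59 ± 0.069, SE, adjusted p = 1.01e-10) and 3.96-fold (log2 change 1.98 ± 0.060, SE, adjusted p = 2.95e-19). HAUS3 gave 30.8 and 24.3 CPM in P-bodies and 26.7 and 25.4 CPM in the cytosol. In MOLM-13 it gave 32.6 and 32.1 CPM in P-bodies and 12.0 and 15.1 CPM in the cytosol. The groups overlapped in HEL and stood apart in MOLM-13, where HAUS3 rose 2.37-fold (log2 change 1.24 ± 0.134, SE, adjusted p = 1.37e-08).

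Of the gamma-tubulin complex genes, 4 of 5 fell in HEL and none rose, with a median log2 change of -0.48, and library totals gave all 5 as lower. In MOLM-13, TUBGCP3, TUBGCP4 and TUBGCP5 rose, calls that library totals did not give, and TUBGCP2 and TUBGCP6 fell. TUBGCP2, which with TUBGCP3 forms the small complex, measured 23.9 and 22.1 CPM in P-bodies and 29.9 and 34.2 CPM in the cytosol. MOLM-13 held 62.0 and 62.0 CPM in P-bodies and 94.4 and 84.0 CPM in the cytosol. P-body libraries lay below cytosolic ones in both lines, by 1.40-fold (log2 change -0.48 ± 0.121, SE, adjusted p = 0.0035) and 1.43-fold (log2 change -0.52 ± 0.078, SE, adjusted p = 2.62e-06). TUBGCP6, a subunit of the ring complex, had 17.8 and 19.7 CPM in P-bodies and 25.2 and 27.2 CPM in the cytosol. In MOLM-13 it had 43.4 and 47.2 CPM in P-bodies and 58.9 and 56.5 CPM in the cytosol. These too fell without overlap, by log2 changes of -0.49 and -0.35.

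TUBGCP3 measured 109 and 102 CPM in P-bodies and 122 and 135 CPM in the cytosol. In MOLM-13 the order was reversed, with 84.3 and 83.1 CPM in P-bodies and 56.4 and 56.3 CPM in the cytosol. Neither line's groups overlapped, and the log2 changes were -0.28 ± 0.084 and 0.57 ± 0.076 (SE). The HEL fall of TUBGCP3 was -0.15 (adjusted p = 0.263) without P-body replicate 2, and it was also not called without cytosolic replicate 2, with RLE factors or with DESeq2. TUBGCP4, a ring complex subunit, showed 66.2 and 59.2 CPM in P-bodies and 92.7 and 96.9 CPM in the cytosol. In MOLM-13 it had 18.3 and 15.9 CPM in P-bodies and 8.12 and 12.7 CPM in the cytosol. Both pairs of groups stood apart, with a fall of 0.60 ± 0.090 in HEL and a rise of 0.69 ± 0.180 in MOLM-13 (log2, SE). The TUBGCP4 rise was 0.45 without MOLM-13 cytosolic replicate 1 and 1.09 without cytosolic replicate 2, and it was called in both. TUBGCP4 shares 33.4% of its exonic bases with TP53BP1 on the opposite strand, and the sources used here do not give the strand setting of the counting. TP53BP1 itself measured 70.5 and 56.2 CPM in P-bodies and 92.1 and 85.6 CPM in the cytosol in HEL and 26.4 and 19.8 CPM in P-bodies and 13.7 and 14.3 CPM in the cytosol in MOLM-13, so it moved in the same direction as TUBGCP4 in each line, and its part in the TUBGCP4 values was not tested. HAUS4 and HAUS7 also share over 20% of exonic bases with another gene, 12 members share 5% to 20% and 49 share less.

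The remaining CEP genes rose or were not called. CEP70, which binds gamma-tubulin, had the greatest rise of all members in MOLM-13, with 190.0 and 186 CPM in P-bodies and 44.3 and 46.1 CPM in the cytosol. In HEL it had 271 and 263 CPM in P-bodies and 104 and 103 CPM in the cytosol. The P-body groups were clear of the cytosol, 4.15-fold (log2 change 2.05 ± 0.069, SE, adjusted p = 1.97e-18) and 2.57-fold (log2 change 1.36 ± 0.074, SE, adjusted p = 8.41e-10) higher. CEP95 rose in both lines (0.79 and 1.21), as did CEP55, which acts in the last step of cell separation (0.37 and 0.34). Under library totals CEP55 was not called in either line (0.045 and -0.095), and with the GC and length trend removed it was not called in HEL (-0.14) and was called lower in MOLM-13 (-0.27, adjusted p = 0.0092). CEP78 rose in MOLM-13 (0.61, and 0.17 without a call in HEL).

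**Figure D2:**
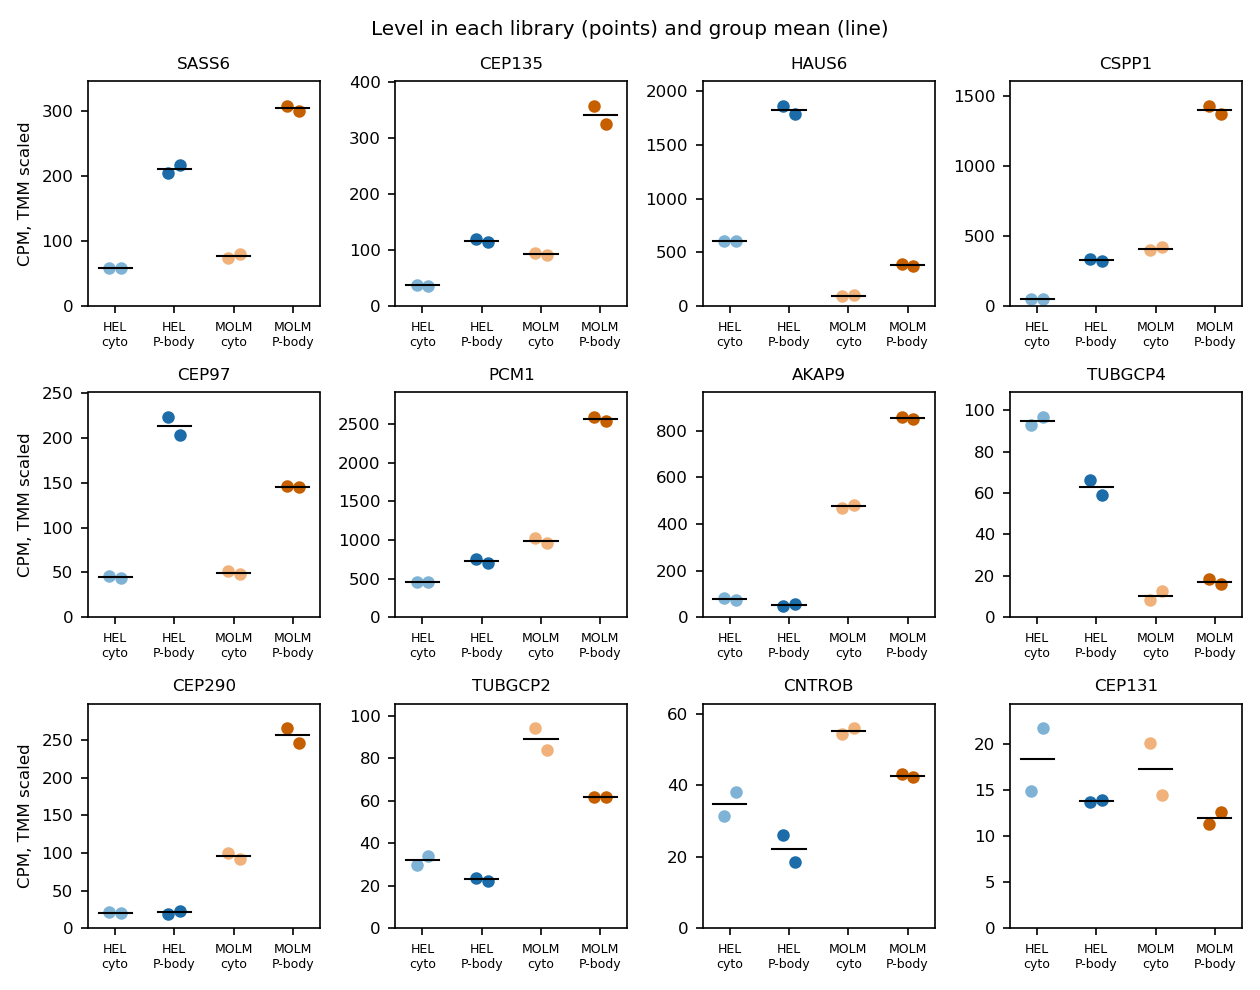
Points are the levels of 12 members in single libraries, in CPM scaled by TMM within each line, and lines are group means (2 libraries each); every panel starts at 0 and has its own scale. SASS6, CEP135, HAUS6, CSPP1, CEP97 and PCM1 are higher in both P-body groups, AKAP9 and TUBGCP4 lie below the cytosol in HEL and above it in MOLM-13, and TUBGCP2, CNTROB and CEP131 are lower in both.

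Per kilobase of transcript, the cytosolic level was highest for CEP20, HAUS6 and HAUS1 in HEL (111, 93.0 and 74.1 CPM per kilobase) and for PCM1, CSPP1 and CEP20 in MOLM-13 (145, 94.2 and 82.6). In P-bodies the leading members were HAUS6, CEP20 and CEP57 in HEL (279, 196 and 183) and PCM1, CSPP1 and CEP20 in MOLM-13 (376, 321 and 232). These ranks depend on the transcript model, the one with the longest coding sequence for each gene. For CEP20 that model was 646 bases long, of which 597 were coding, against 6536 bases for HAUS6. A short model raises the level per kilobase, so the place of CEP20 may follow from its model, and other models were not tried. In bulk libraries, fewer cells that express a gene and less RNA per cell cannot be told apart.

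A further 56 centrosome genes outside the name rule were taken as a list, among them gamma-tubulin itself, the distal appendage gene SCLT1 and the elongation factor CENPJ. In HEL, 24 of 54 tested rose (44.4%) and 11 fell (20.4%), with a median log2 change of 0.18, beside the 27.5% and 27.1% of all genes. In MOLM-13, 34 of 55 rose (61.8%) and 14 fell (25.5%), with a median of 0.76, beside 32.4% and 28.5%. The shares that fell were thus near or below those of all genes. CEP85L had the greatest rise in HEL (2.31 ± 0.082, SE, adjusted p = 2.62e-11) and KIF2A, a microtubule-depolymerising kinesin, in MOLM-13 (2.15 ± 0.056, SE, adjusted p = 1.76e-20). The lowest values belonged to CROCC, or rootletin, in HEL (-2.13 ± 0.347, SE, adjusted p = 0.000104) and to PPP1R35 in MOLM-13 (-1.32 ± 0.179, SE, adjusted p = 6.79e-07). In HEL, CROCC had 1.44 and 4.23 CPM in P-bodies and 9.03 and 15.6 CPM in the cytosol. In MOLM-13, PPP1R35 had 12.2 and 25.6 CPM in P-bodies and 51.2 and 42.1 CPM in the cytosol. The P-body replicates of both genes thus lay far apart, which limits the size of these falls. CENPJ rose by 1.88 and 1.39, SCLT1 by 1.58 and 1.92, and TUBG1, the main gamma-tubulin gene, fell in both lines (-0.40 and -0.38).

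The change between P-body and cytosol was then compared between lines in a fit of all 8 libraries. The difference is the change in MOLM-13 less the change in HEL. TMM was computed over all 8 libraries there, so these differences do not equal those between the changes given per line. For AKAP9 the fit gave 1.22, against 1.41 with TMM computed within each line, and for SASS6 it gave -0.06 against 0.13. Of 62 members, 21 had a higher change in MOLM-13 and 4 a lower one, where 9.15% of all 17477 genes tested were higher and 13.0% lower. The median difference was 0.18 for the members and -0.11 for all genes. With TMM computed within each line, an alternative chosen after seeing the data, 30 members were higher and 2 lower, where 15.1% of all genes were higher and 8.01% lower and their median was 0.08. All 21 higher calls and 2 of the 4 lower calls, CSPP1 and CEP97, were shared by both scalings. The median difference of all genes was 0.19 without HEL P-body replicate 1 and 0.17 without HEL cytosolic replicate 1, against -0.11 with all libraries.

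CEP290, AKAP9, TUBGCP4 and HAUS3 had the greatest differences, 1.22 ± 0.132, 1.22 ± 0.095, 1.10 ± 0.204 and 0.97 ± 0.203 (log2, SE), with adjusted p from 2.33e-08 to 0.00125. CSPP1 and CEP97 rose less in MOLM-13 than in HEL, by differences of -1.06 ± 0.089 and -0.89 ± 0.114 (adjusted p = 5.51e-08 and 6.81e-06). STIL (-0.44, adjusted p = 0.0387) and CCP110 (-0.40, adjusted p = 0.00458) also had lower differences, and both calls were lost with TMM computed within each line. Of all members 33.9% had a higher change in MOLM-13, beside 9.15% of all genes. By role, it was 3 of 5 gamma-tubulin complex genes (60%) and 3 of 8 pericentriolar material and linker genes (37.5%). It was 3 of 7 augmin genes and 3 of 7 centriolar satellite genes (42.9% each), and 3 of 11 mother centriole and appendage genes (27.3%). No gene of these roles had a called lower change. For procentriole assembly it was 1 higher (CEP85) and 1 lower (STIL) of 8, or 12.5% each, beside 9.15% and 13.0% of all genes. Of 6 centriole elongation and capping genes, 1 was higher (16.7%) and 2, CEP97 and CCP110, were lower (33.3%). Of the 5 cilium and axoneme genes described here, 2 were higher (40%) and 1, CSPP1, was lower (20%). Among the 4 remaining CEP genes tested, 1 was higher (25%) and none was lower.

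A group of 7 members fell in HEL and rose in MOLM-13: AKAP9, CDK5RAP2, CEP85, HAUS5, ODF2, TUBGCP3 and TUBGCP4. Under library totals the MOLM-13 rise was called for AKAP9 alone among them, HAUS5 turned to -0.16 without a call, and ODF2 turned to a called fall of 0.21 (adjusted p = 0.0259). The MOLM-13 rises of HAUS5 and ODF2 were also not called with DESeq2, with a mean CPM of at least 5, in a fit of all 8 libraries or without cytosolic replicate 1, nor was that of AKAP9 with the GC and length trend removed (0.10, adjusted p = 0.0574). The HEL falls of HAUS5 and TUBGCP3 were not called without P-body replicate 2, that of TUBGCP3 was not called with RLE factors or DESeq2, and those of HAUS5 and ODF2 were not called with the trend removed. For CDK5RAP2, CEP85 and TUBGCP4 the only one of these calls lost under the alternatives run was the MOLM-13 rise under library totals. No member rose in HEL and fell in MOLM-13. Among the 11984 genes tested in both lines, 2.42% fell in HEL and rose in MOLM-13 and 0.876% did the reverse. Each of the 7 also had a called difference between lines, from 0.42 for ODF2 to 1.22 for AKAP9. Across 61 members the log2 changes in HEL and MOLM-13 had a Spearman rho of 0.82, and across all 11984 genes tested in both it was 0.68. These are correlations across genes, which are not independent replicates.

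**Figure D3:**
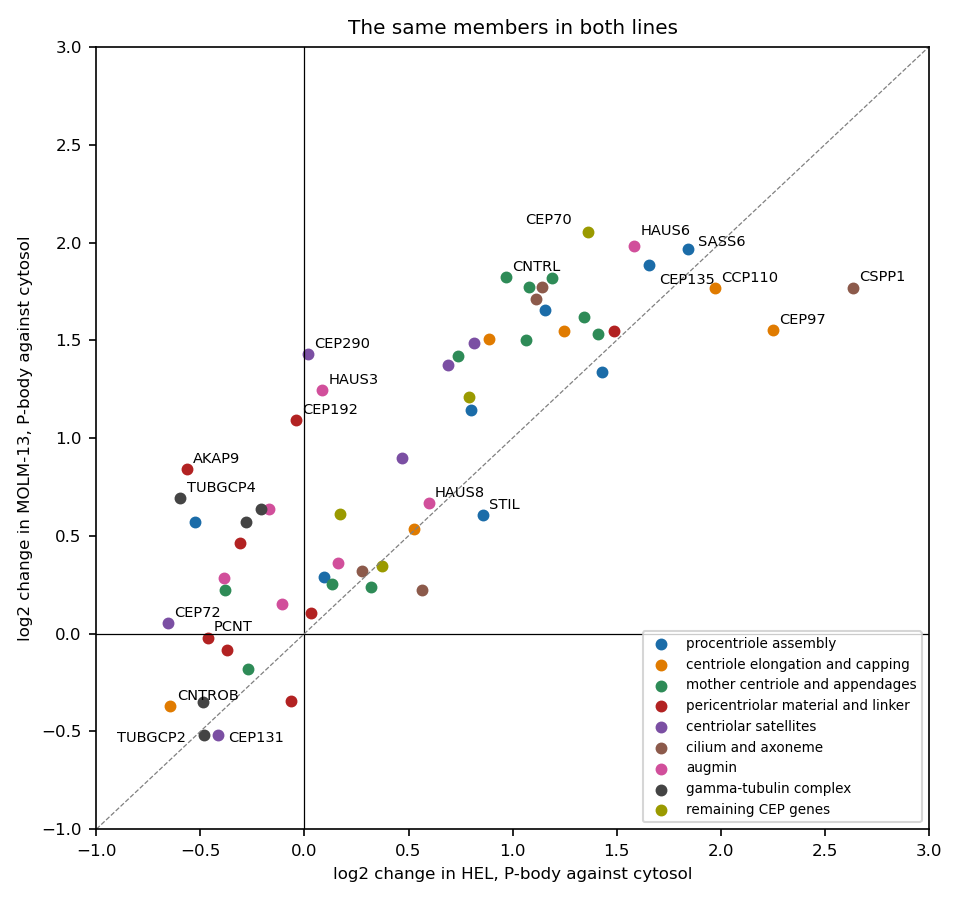
Each point is a member, with its log2 change between P-body and cytosol in HEL on the x axis and in MOLM-13 on the y axis, coloured by role; the dashed line marks equal changes. Most points lie above the line, CSPP1 and CEP97 lie below it, and the upper left region holds AKAP9, TUBGCP4 and the other members that were lower in HEL and higher in MOLM-13.

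Members' transcripts were longer and lower in GC content than those of coding genes in general. Median GC content was 42.8% for the 61 members tested in HEL against 48.6% for 11936 tested coding genes, and median transcript length was 4969 against 3074 bases. The log2 change fell as GC content rose, with a Spearman rho of -0.70 across the members in HEL and -0.71 in MOLM-13. Across all tested coding genes it was -0.67 and -0.72. Transcript length had a rho of 0.09 and 0.03 across the members. These values are across genes of the same libraries and carry no test.

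Among members with a GC content under 42%, 21 of 26 rose in HEL and 25 of 27 in MOLM-13. The corresponding shares of all tested coding genes were 72.1% and 77.8%. From 42% to under 50% GC, 10 of 20 members rose and 3 fell in HEL, and 17 of 20 rose and 0 fell in MOLM-13. Of all coding genes in that class, 39.7% were higher and 16.7% lower in HEL, and 53.8% and 9.40% in MOLM-13. At 50% GC or more, 1 of 15 members rose and 10 fell in HEL, and 5 rose and 5 fell in MOLM-13, where 4.65% and 7.28% of all coding genes were higher and 52.6% and 52.9% lower. AKAP9 and CEP290 had low GC content, 37.6% and 34.8%, and did not rise in HEL. HAUS8, at 54.1%, rose in both lines. The 31 members that rose in both lines had a median of 34.7% G or C at the third codon position and used GAA for 68.3% of glutamate codons. For the 4 that fell in both, shown above from CEP131 to TUBGCP6, these medians were 77.2% and 17.9%. Across all coding genes tested in HEL they were 57.4% and 43.6%. The log2 change had a Spearman rho with third-position G or C of -0.65 in HEL and -0.62 in MOLM-13 across the members. Across all tested coding genes it was -0.63 and -0.72, so the relation was not particular to the members.

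**Figure D4:**
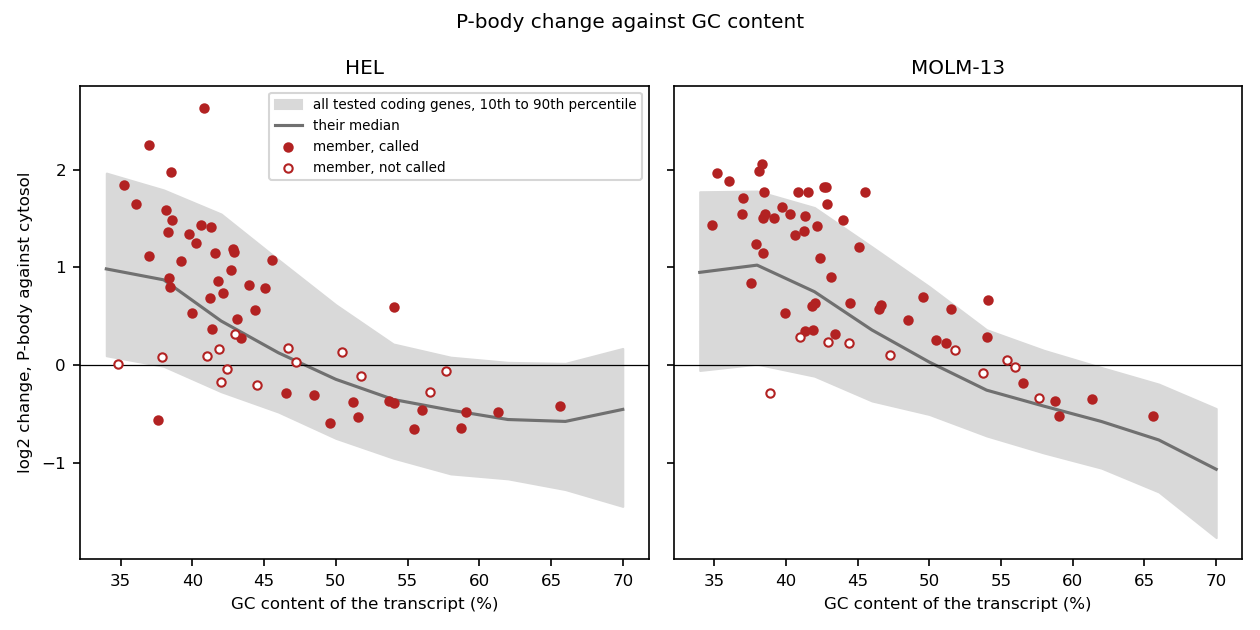
Points are members, with the GC content of the transcript on the x axis and the log2 change between P-body and cytosol on the y axis, for HEL (left) and MOLM-13 (right). Grey bands and lines give the 10th to 90th percentile and the median of all tested coding genes by GC content, and the members' changes fall from left to right along with them.

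A smooth trend on GC content and transcript length explained 36.5% of the deviance of the log2 changes over all genes in HEL and 40.8% in MOLM-13. With that trend removed, 23 members were higher and 12 lower in HEL, where 23.3% of all genes were higher and 21.5% lower, and the members' median was 0.13. All 23 were among the 32 called without the correction, and PCM1, PLK4, CEP162 and CEP44 were among the 9 lost. Of the 14 lower calls in HEL 5 were kept, those of AKAP9, CDK5RAP2, CEP85, TUBGCP3 and TUBGCP4, so that 7 of the 12 were not called lower without the correction. In MOLM-13, 40 were higher and 2 lower, where 29.9% and 18.3% of all genes were called, with a members' median of 0.48. Of the 47 higher calls made without the correction 39 were kept, and those of AKAP9, CEP120, CEP41, CEP55, HAUS1, HAUS2, STIL and TUBGCP5 were lost. All 5 lower calls were lost, and CEP131, CNTROB, CEP164 and TUBGCP6 turned positive without a call. The part of GC content in the change of any single member was not tested.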

How the data were processed

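Gene symbols, role lists and tests were chosen with earlier results of these data known. Per the file headers, the authors deposited 1 table a line with whole-number read counts for each gene symbol. The authors used STAR, SAMtools 1.12, DESeq2 and the build GRCh38, per the submitters' processing notes, and the kits were miRNeasy Micro for RNA and NEBNext Ultra II for libraries, per the labels. The sources used here do not give the counter, annotation, strand setting or filter, so reads of overlapping genes cannot be told apart.

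Of 61544 rows, 1348 carried 1 of 112 repeated symbols and were left out. Counts were tested with edgeR 4.0.16 in R 4.3.3 (TMM, filterByExpr with a smallest count of 10, quasi-likelihood F test, Benjamini-Hochberg adjustment over all genes tested, threshold 0.05), in each line on its own and, for the difference between lines, in a fit of all 8 libraries. That fit assumes 1 spread per gene, while the common coefficient of variation differed (0.0781 for HEL libraries, 0.0382 for MOLM-13). The fits within lines and the fit of the difference were also run on simulated counts. Those counts had 1 common spread for all genes, so they do not show how the fits deal with spread that differs between genes. Replicates differed by more than sampling noise (chi-square per degree of freedom of 1.87 to 6.15) and counted as separate samples.

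Genes named with values in each library were, per line, the 6 called members with the greatest and the 4 with the lowest change, the 4 with the greatest and the 4 with the lowest difference between lines, and in each role the member with the lowest p. A member counted in the totals over all members is not reported singly, in its role or in the plots. Alternatives were DESeq2 1.42.0, RLE factors, library totals, no filter, a mean CPM of at least 5, a replicate block, a trend on GC content and length (mgcv 1.9.3), a fit of all libraries and leaving out each library. Transcript properties came from the GENCODE release 29 transcript with the longest coding sequence, with all 64 members matched, and TMM factors ran from 0.858 to 0.903 in P-bodies and 1.12 to 1.17 in the cytosol.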

Additional observations from a re-analysis of the deposited data

Results flagged for a closer look

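The change between P-body and cytosol differed between the lines for 25 members by the interaction term of edgeR's quasi-likelihood fit (MOLM-13 minus HEL, log2, adjusted p below 0.05). TMM was computed over all 8 libraries there, so the values are not plain differences of the changes given per line. The higher differences given here were 1.22 for CEP290, 1.22 for AKAP9, 1.10 for TUBGCP4, 0.97 for HAUS3, 0.94 for CEP192, 0.91 for CEP85, 0.66 for CNTRL, 0.66 for TUBGCP3, 0.65 for TUBGCP5 and 0.61 for HAUS2. They were 0.58 for CDK5RAP2, 0.50 for CEP70, 0.50 for PCM1, 0.49 for NIN, 0.48 for HAUS5, 0.48 for CEP20, 0.44 for KIAA0586, 0.43 for CEP44, 0.42 for ODF2 and 0.41 for CEP162. The lower differences were -1.06 for CSPP1, -0.89 for CEP97, -0.44 for STIL and -0.40 for CCP110. Of the 21 higher differences, 16 were called under all 16 alternatives tried, and of the 4 lower ones 2. Groups of 2 libraries were too small for a search for outlying libraries.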

How the results depend on the processing

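Of the 32 members that rose in HEL, 31 kept their call under the 10 alternatives other than library totals and the trend on GC content and length, and 23 under all 12. For the 47 rises in MOLM-13 these numbers were 41 and 31, for the 14 falls in HEL 7 and 4, and for the 5 falls in MOLM-13 1 and 0. Leaving out 1 library gave 31 to 32 higher and 8 to 14 lower members in HEL, 43 to 46 and 3 to 4 in MOLM-13, and 17 to 37 higher and 2 to 6 lower differences between lines. The median difference of all genes moved with the library left out as well, for example to 0.19 without HEL P-body replicate 1. The falls in MOLM-13 numbered 9 with library totals, 1 with DESeq2 and 2 with the trend removed. Lower differences numbered 2 without a filter, 2 with DESeq2 and 2 with TMM within each line.

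Under library totals, log2 changes reversed in HEL for CEP41 (-0.049) and CEP68 (-0.29), and in MOLM-13 for CEP41 (-0.12), CEP55 (-0.10), CEP68 (-0.33), CEP89 (-0.19), HAUS1 (-0.076), HAUS5 (-0.16) and ODF2 (-0.21). With the trend removed they reversed in HEL for CEP120 (-0.13), CEP131 (0.23), CEP250 (0.031), CEP290 (-0.91), CEP41 (-0.091), CEP55 (-0.14), CEP76 (-0.44), HAUS1 (-0.37), HAUS3 (-0.74), TUBGCP2 (0.061) and TUBGCP6 (0.086). In MOLM-13 they reversed for CEP120 (-0.18), CEP131 (0.24), CEP164 (0.17), CEP41 (-0.15), CEP55 (-0.27), CNTROB (0.056), HAUS1 (-0.039), PCNT (0.35) and TUBGCP6 (0.18). The difference between lines for CEP350 was 0.32 without HEL P-body replicate 1. Of these reversed values, those called were CEP68 in both lines and ODF2 in MOLM-13 under library totals, CEP290, CEP76, HAUS1 and HAUS3 in HEL and CEP55 and PCNT in MOLM-13 with the trend removed, and the CEP350 difference. CEP55 and ODF2 turned from a called rise to a called fall. The cause of these changes was not tested.

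A replicate block left every count of called members at its value, 32 and 14 in HEL, 47 and 5 in MOLM-13 and 21 and 4 for the difference. Deviations of same-numbered libraries correlated at -0.003 in HEL and -0.013 in MOLM-13, so the numbers gave no sign of pairing. With 2 libraries a group, members under 5 CPM, such as NINL and CEP126, had standard errors of 0.28 to 0.43 on the log2 scale, which limits what a missed call says.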
